A study of Bos taurus with 14 samples.

Results

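LALBA and PAEP, the genes of the main whey proteins of cow's milk, were followed in RNA carried by milk fat globules. Milk fat globules are the fat droplets that the secretory cells of the udder release, and they enclose some cytoplasm and RNA of those cells. The members are 2 identifiers, ENSBTAG00000005859 for LALBA and ENSBTAG00000014678 for PAEP, out of 36075 gene identifiers in the deposited tables. They were chosen by identifier and not by a cut on their values, though with earlier results of these data known. The tables themselves carry no gene names, so the names rest on these identifiers and could not be checked against the files. The samples came from 14 purebred Holstein cows of 1 commercial farm, which shared rations, free access to water and management. The groups were 7 cows homozygous for the A1 form of β-casein (A1A1) and 7 homozygous for the A2 form (A2A2), with 1 library per cow. Cows are named here by genotype and sample number. The labels state neither the age nor the stage of lactation of the cows.

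LALBA encodes α-lactalbumin, which binds a galactosyltransferase in the Golgi and directs it to make lactose, the sugar that draws water into milk. PAEP encodes β-lactoglobulin, a lipocalin that can carry small fat-soluble molecules and is the most abundant whey protein of cows. Both genes are switched on in secretory epithelium by lactogenic hormones, prolactin among them, and lie on different chromosomes. In milk fat globules their transcripts come mainly from the secretory cell. In such bulk samples, fewer cells of a type and less RNA per cell cannot be told apart.

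Total counts per library ran from 16116849 to 22994197, and both genes had at least 20995 counts in every library, so counting error is small beside the spread between cows. The library A1A1 9 stood apart for both genes. Of the 50 genes with most counts, 12 match a mitochondrial gene (protein-coding or rRNA) exactly in length and are called the mitochondrial-length genes. They took 51.8% of its counts, against 5.12 to 33.0% in the other 13 libraries. Results are therefore given with and without A1A1 9. The rule for the mitochondrial-length genes was chosen with earlier results of these data known. In A1A1 3 the TMM factor, which scales a library total for composition, was 0.636 against 0.908 or more in the other 13 libraries. This low factor raises all its CPM values (library-scaled counts with TMM factors). A suffix _2 of unstated meaning closes the description of 4 libraries, those of A1A1 10, A1A1 15, A2A2 5 and A2A2 13. They were compared with the other 10 as a possible batch.

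Both transcripts were among the most abundant in milk fat globules, and PAEP was the higher of the pair in every cow. By counts, PAEP held abundance rank 1 to 5 and LALBA rank 8 to 17 in the 13 libraries other than A1A1 9, where they held ranks 19 and 63. Levels of different genes were compared per length, on the deposited FPKM values (fragments scaled by gene length and library size). The FPKM values imply gene lengths of 755 bases for PAEP and 983 bases for LALBA. PAEP FPKM was 57548 ± 32445 in the A1A1 cows and 75593 ± 25665 in the A2A2 cows. LALBA FPKM was 14350 ± 6820 in the A1A1 cows and 19067 ± 4272 in the A2A2 cows (SD, n = 7 each). The log2 ratio of PAEP to LALBA FPKM was 2.00 ± 0.414 (SD over 14 libraries), and PAEP was higher in 14 of 14 libraries (exact sign-flip permutation p = 0.000122, two-sided, the smallest these data can give). The FPKM ratio ran from 2.24 in A2A2 13 to 6.94 in A1A1 9, with a median of 4.05.

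In the order of mean FPKM over the 14 libraries, PAEP was in place 2, between ENSBTAG00000007695 with 84509 ± 32944 and ENSBTAG00000002632 with 50058 ± 19552 (SD over 14 libraries). PAEP had a mean of 66571 ± 29623, and the means of these neighbours lay within 1 SD of it. PAEP was above the first of them in 3 of 14 libraries and above the second in 11 of 14. LALBA, with 16708 ± 5990, was in place 13, and the means of both neighbours lay within 1 SD of it. The gene before it, ENSBTAG00000043556, is 1 of the mitochondrial-length genes and had 20202 ± 14564. The gene after it, ENSBTAG00000066082, had 15828 ± 27318 FPKM, with a median of 4892 against 16917.5 for LALBA. LALBA was above the gene before it in 8 of 14 libraries and above the gene after it in 9 of 14. The SDs measure spread between cows, and differences from these neighbours within a library were not tested.

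With TMM factors and all 14 libraries, LALBA passed neither edgeR's test nor the exact permutation test for a difference between the genotypes. The exact permutation test, unadjusted, fell under 0.05 without A1A1 3 and on library totals, with the values given beside the CPM and the shares. In the A1A1 cows its lowest CPM was 1252, the median 14937 and the highest 23386, and in the A2A2 cows the lowest was 13987, the median 17574 and the highest 25794. The groups overlapped, since 6 of 7 A2A2 values lay inside the A1A1 range and only A2A2 1 lay above it. Of all genes tested 0.0406% had no overlap between the genotypes. The low A1A1 end was 1 cow, A1A1 9, and the next lowest value, in A1A1 2, was 12509. Mean LALBA CPM was 14214 ± 6786 in the A1A1 cows and 18708 ± 4170 in the A2A2 cows (SD, n = 7 each). edgeR's quasi-likelihood test gave a log2 fold change of 0.40 (adjusted p = 0.856, Benjamini-Hochberg over the whole table). Mean log2 CPM differed by 0.72 with a standard error of 0.55 and a 95% interval of -0.12 to 1.96 (exact permutation p = 0.145, adjusted p = 0.289 over the 4 tests of both genes, their ratio and their summed share). Without A1A1 9 the difference in mean log2 CPM was 0.20, with an interval of -0.21 to 0.59 (exact permutation p = 0.291). Without A1A1 3 it was 0.90 (exact permutation p = 0.0256).

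With the same scaling and libraries PAEP passed neither of these tests. Its CPM in the A1A1 cows had a lowest value of 6675, a median of 37128 and a highest of 88265, and in the A2A2 cows these were 29124, 51418 and 88201. All 7 A2A2 values lay inside the A1A1 range, whose ends were A1A1 9 and A1A1 3. Mean PAEP CPM was 43831 ± 24959 in the A1A1 cows and 56950 ± 19170 in the A2A2 cows (SD, n = 7 each). In edgeR its log2 fold change was 0.38 (adjusted p = 0.857). Mean log2 CPM differed by 0.60 with a standard error of 0.48 and a 95% interval of -0.31 to 1.67 (exact permutation p = 0.250, adjusted p = 0.333 over 4 tests). Without A1A1 9 the difference was 0.20, with an interval of -0.45 to 0.85 (exact permutation p = 0.501). Without A1A1 3 it was 0.82 (exact permutation p = 0.0676). The intervals of both genes still hold differences of either sign, so equal levels are not shown.

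**Figure D1:**
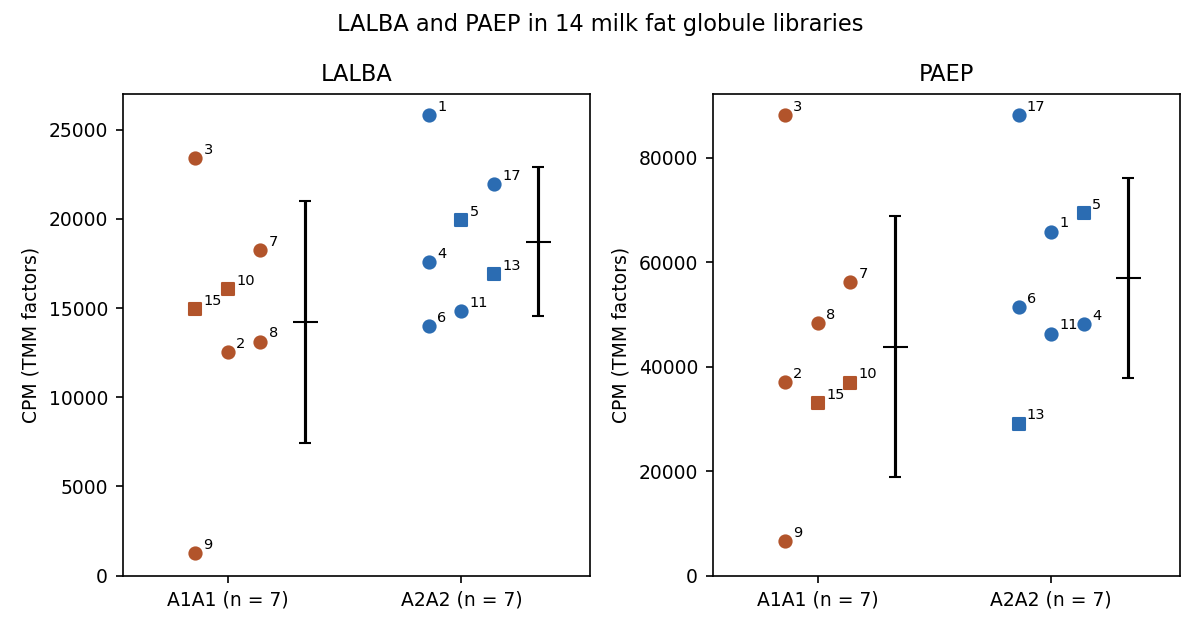
CPM with TMM factors (linear axes from 0) of LALBA, left, and PAEP, right, with 1 point per cow labelled by sample number, squares for libraries whose description ends in _2, and bars for mean ± SD (n = 7 each). A1A1 9 has 1252 CPM of LALBA and 6675 CPM of PAEP, and the 2 genotypes overlap for both genes.

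Over all 12320 genes tested edgeR called 0, or 0%, at an adjusted p of 0.05, and neither of the 2 whey protein genes was called. At an unadjusted p under 0.05 edgeR had 411 genes, or 3.34%, again without LALBA and PAEP. DESeq2 called 9 genes, or 0.0731%, with neither member among them. Leaving out 1 library moved the edgeR log2 fold change of LALBA between 0.19 and 0.53 and that of PAEP between 0.19 and 0.61. Both were lowest without A1A1 9 and highest without A1A1 3.

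**Figure D2:**
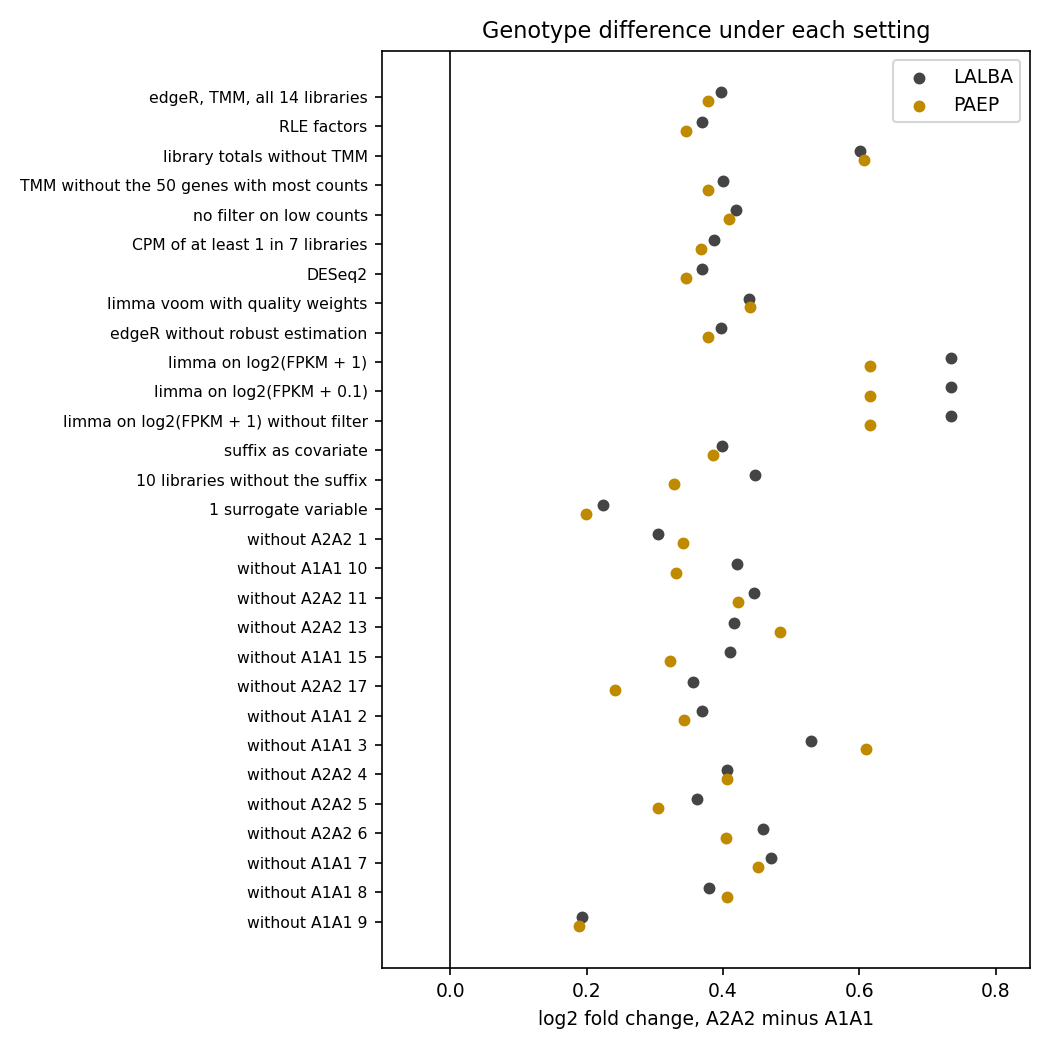
Log2 fold change, A2A2 minus A1A1 (horizontal axis), of LALBA and PAEP for all 14 libraries by edgeR and under 28 other settings (rows), with 1 point per gene and setting. The points lie above 0 in all settings drawn, and the lowest are those without A1A1 9, at 0.19 for both genes, where neither gene passes the test.

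As plain shares of the library's counts, without TMM factors, the mean for the whey protein genes was higher in A2A2, but the difference of the summed share did not pass once adjusted. LALBA and PAEP together made up 5.27 ± 2.27% of an A1A1 library and 8.02 ± 2.05% of an A2A2 library (SD, n = 7 each). The summed share in A1A1 cows had a lowest value of 0.718%, a median of 5.82% and a highest of 7.31%, and in A2A2 cows these were 5.20, 7.92 and 11.4%. Of the A2A2 libraries 4 of 7 lay above every A1A1 library, and 6 of 7 lay above the A1A1 median. The difference was 2.75 percentage points, with an interval of 0.29 to 5.32 (exact permutation p = 0.0268, adjusted p = 0.107 over 4 tests). Without A1A1 9 it was 1.99 points (exact permutation p = 0.0577), and it was 2.58 without A2A2 1, 2.57 without A2A2 5 and 2.18 without A2A2 17 (exact permutation p = 0.0542, 0.0542 and 0.0606). In the 10 libraries without the suffix _2 it was 3.08 points (exact permutation p = 0.0635), and in the 4 with it 1.91 points between 2 cows and 2 cows, with no test run.

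LALBA alone made up 1.31 ± 0.569% of an A1A1 library and 1.99 ± 0.375% of an A2A2 library, and PAEP alone 3.96 ± 1.77% and 6.03 ± 1.83% (SD, n = 7 each). Of the A2A2 libraries, 5 of 7 for LALBA and 4 of 7 for PAEP lay above every A1A1 library. On library totals the mean log2 level differed by 0.92 for LALBA (exact permutation p = 0.0111) and by 0.80 for PAEP (exact permutation p = 0.0618), tests that are alternatives to the 4 and were not adjusted. The LALBA share differed by 0.678 points with all cows (exact permutation p = 0.0105) and by 0.478 without A1A1 9 (exact permutation p = 0.0221). The PAEP share differed by 2.07 points (exact permutation p = 0.0513) and by 1.51 without A1A1 9 (exact permutation p = 0.103). These tests of shares are unadjusted. On library totals edgeR gave an adjusted p of 0.670 for each gene, and the median log2 fold change over all genes tested was 0.18. In A1A1 9 the LALBA share was 0.113% (exact binomial 95% interval 0.112 to 0.115%) and the PAEP share 0.605% (0.601 to 0.609%). These intervals cover counting error only. The mitochondrial-length genes moved the opposite way, with 26.7 ± 12.8% of an A1A1 library and 12.1 ± 5.20% of an A2A2 library (SD, n = 7 each). Their share differed by -14.5 points (exact permutation p = 0.00641, and 0.0117 without A1A1 9, unadjusted). A larger share for them leaves less of the total for other genes. Whether this accounts for the difference in the whey protein genes was not tested. Scaled to the counts outside these genes, the difference in mean log2 level was 0.64 for LALBA (exact permutation p = 0.0612) and 0.52 for PAEP (exact permutation p = 0.165). Of the counts outside them, the summed share differed by 2.15 points (exact permutation p = 0.102).

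The balance between the 2 whey transcripts varied between cows without a detected difference between genotypes. The ratio of PAEP to LALBA counts depends on neither depth nor scaling. It had a lowest value of 2.21, a median of 3.09 and a highest of 5.33 in A1A1, and 1.72, 3.13 and 4.02 in A2A2. Of the A2A2 ratios 6 of 7 lay inside the A1A1 range and that of A2A2 13 lay below it. The mean log2 ratio was 1.68 ± 0.440 for A1A1 cows and 1.56 ± 0.412 for A2A2 cows (SD, n = 7 each). The difference was -0.12 with a 95% interval of -0.63 to 0.37 (exact permutation p = 0.611, adjusted p = 0.611 over 4 tests). Without A1A1 9, whose ratio was the highest, the difference was 0.0032 with an interval of -0.46 to 0.45, and without A2A2 13 it was 0.010.

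The mean ratio was lower in the 4 libraries with the suffix _2, but the difference did not pass once adjusted. The mean log2 ratio was 1.23 ± 0.420 with the suffix (SD, n = 4) and 1.77 ± 0.310 without it (SD, n = 10), a difference of -0.54 (exact permutation p = 0.0190, adjusted p = 0.0949 over 5 measures compared by suffix). Without A1A1 9 the difference was -0.47 (exact permutation p = 0.0224). The 3 lowest ratios, in A2A2 13, A1A1 15 and A1A1 10, were all in libraries with the suffix, and the fourth such library, A2A2 5, had 3.48. Each genotype has 2 of these libraries. The genotype difference in the log2 ratio was -0.21 in the 10 libraries without the suffix (exact permutation p = 0.302) and 0.12 in the 4 with it, where no test was run.

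**Figure D3:**
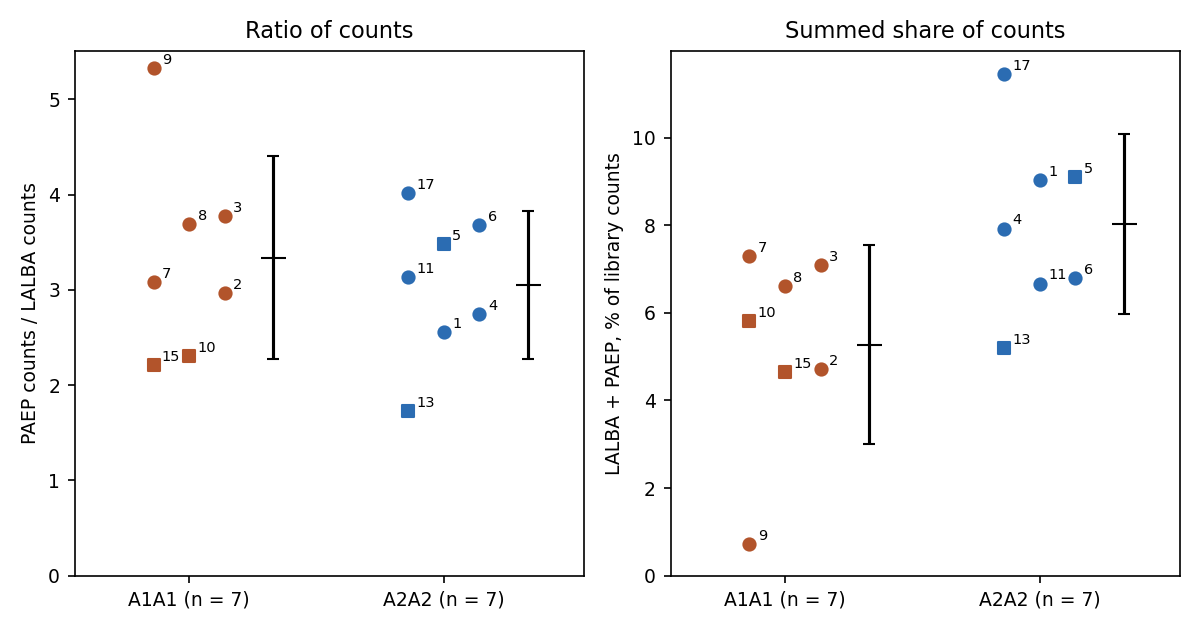
Ratio of PAEP to LALBA counts (left) and summed share of both genes in percent of library counts (right) in each cow, both axes from 0, with squares for libraries whose description ends in _2 and bars for mean ± SD (n = 7 each). A1A1 9 has the highest ratio, 5.33, and the lowest share, 0.718%, and 3 of the 4 squares have the lowest ratios.

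The 2 transcripts varied together across cows. Pearson's r of their log2 CPM was 0.92 (permutation p = 0.00019, adjusted p = 0.000665 over the 7 relations computed) and Spearman's rho 0.71 (permutation p = 0.00552, adjusted p = 0.0129) over 14 cows. Each pair of values shares a library, its depth and its TMM factor. Without A1A1 9 r was 0.71 (permutation p = 0.00708, adjusted p = 0.0248) and rho 0.64 (permutation p = 0.0216, adjusted p = 0.0505). Without the 2 cows farthest from the LALBA median, A1A1 9 and A2A2 1, r was 0.72 (permutation p = 0.00867). Within A1A1 r was 0.96 (exact permutation p = 0.00595, n = 7), and 0.80 without A1A1 9, which did not fall under 0.05 (exact permutation p = 0.05, n = 6). By rank neither passed within A1A1, with rho = 0.71 (exact permutation p = 0.0881, n = 7) and 0.54 without A1A1 9 (exact permutation p = 0.297, n = 6). Within A2A2 r was 0.60 and rho 0.64, and neither passed (exact permutation p = 0.152 and 0.139, n = 7). In the 10 libraries without the suffix r was 0.98 (permutation p = 0.00036), and 0.85 without A1A1 9 (permutation p = 0.00389, n = 9). The suffix libraries, 4 in number, are too few for a value of their own.

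The size of this relation depended on the scaling once A1A1 9 was left out. Scaled to the counts outside the mitochondrial-length genes, r over the other 13 cows was 0.35 (permutation p = 0.238), against 0.60 on library totals (permutation p = 0.0306) and 0.71 with TMM factors.

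**Figure D4:**
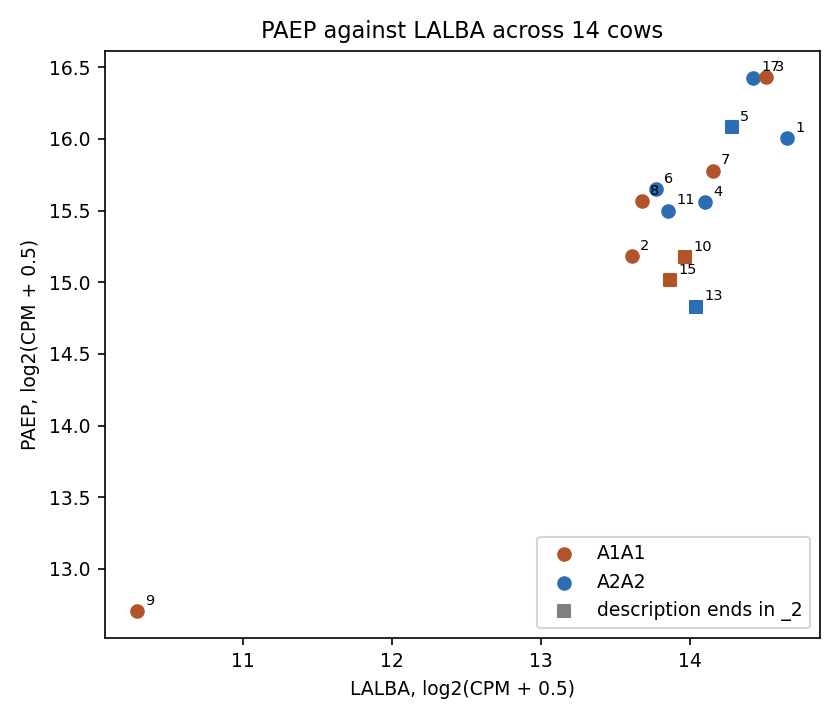
PAEP against LALBA, both as log2(CPM + 0.5), with 1 point per cow labelled by sample number, colour for genotype and squares for libraries whose description ends in _2. A1A1 9 lies apart at 10.3 for LALBA and 12.7 for PAEP, and the other 13 cows give r = 0.71.

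Among the other 49 of the 50 genes with most counts, those most like LALBA over the 14 libraries were ENSBTAG00000007695 (abundance rank 2, 797 bases, r = 0.97) and ENSBTAG00000002632 (rank 3, 1338 bases, r = 0.96). For PAEP they were ENSBTAG00000063266 (rank 8, 543 bases, r = 0.96) and LALBA itself (r = 0.92). PAEP was in place 5 by likeness to LALBA. Without A1A1 9, the gene closest to LALBA was again ENSBTAG00000007695 (r = 0.81) and the gene closest to PAEP was again ENSBTAG00000063266 (r = 0.83). These values of r describe log2 CPM and carry no test.

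Both whey transcripts were lower in cows with a larger share of mitochondrial-length genes. For LALBA r was -0.89 (permutation p = 8.0e-05, adjusted p = 0.00056) and rho -0.84 (permutation p = 0.00036), and for PAEP r was -0.87 (permutation p = 0.00062, adjusted p = 0.00145) and rho -0.72 (permutation p = 0.00474). Without A1A1 9 r was -0.78 for LALBA (permutation p = 0.00152, adjusted p = 0.0106) and -0.65 for PAEP (permutation p = 0.0169, adjusted p = 0.0394). Their rho was then -0.80 (permutation p = 0.0019, adjusted p = 0.0133) and -0.65 (permutation p = 0.0178, adjusted p = 0.0505), so that of PAEP did not pass once adjusted. Without the 2 cows farthest from the median share, A1A1 8 and A1A1 9, r was -0.75 for LALBA (permutation p = 0.00525) and -0.79 for PAEP (permutation p = 0.00304). Within A1A1 it was -0.94 for LALBA (exact permutation p = 0.00119, n = 7) and -0.92 for PAEP (exact permutation p = 0.0139, n = 7), and without A1A1 9 it was -0.90 and -0.64 (exact permutation p = 0.0208 and 0.175, n = 6). By rank within A1A1, rho was -0.96 for LALBA (exact permutation p = 0.00278, n = 7) and -0.68 for PAEP, which did not pass (exact permutation p = 0.11, n = 7). Without A1A1 9 rho was -0.94 and -0.49 (exact permutation p = 0.0167 and 0.356, n = 6). Within A2A2 r was -0.71 for LALBA (exact permutation p = 0.0782, n = 7) and -0.80 for PAEP (exact permutation p = 0.0264, n = 7), and rho was -0.71 for each, which did not pass (exact permutation p = 0.0881).

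The same relation held in the 10 libraries without the suffix, with r = -0.90 for LALBA (permutation p = 0.00056) and -0.89 for PAEP (permutation p = 0.00215). In 9 of these, without A1A1 9, r was -0.76 for LALBA (permutation p = 0.0154) and -0.65 for PAEP, which did not pass (permutation p = 0.0565). The share and the CPM of a gene come from the same library total. Scaled to the counts outside the mitochondrial-length genes, r was -0.81 for both genes over 14 cows (permutation p = 0.0076 and 0.00429). Without A1A1 9 it was -0.38 for LALBA and -0.45 for PAEP, which did not pass (permutation p = 0.200 and 0.120). By rank, rho without A1A1 9 was -0.59 for LALBA (permutation p = 0.0375, unadjusted) and -0.53 for PAEP (permutation p = 0.0664). Over 14 cows, no relation of either gene with the total count or the number of genes detected passed (adjusted p of r 0.234 or more and of rho 0.0820 or more, permutation tests). The lowest of these was LALBA with genes detected, with rho = -0.55 (permutation p = 0.0468, adjusted p = 0.0820). Without A1A1 9 none passed either (adjusted p of r 0.200 or more and of rho 0.146 or more, permutation tests).

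**Figure D5:**
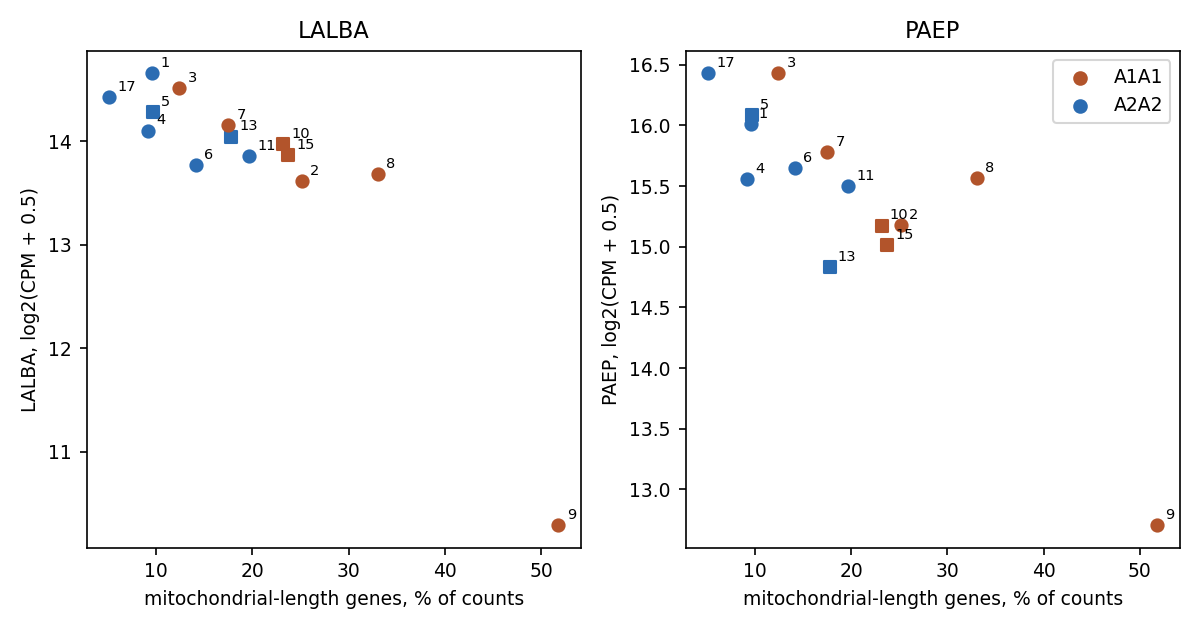
LALBA (left) and PAEP (right), as log2(CPM + 0.5), against the share of library counts taken by the mitochondrial-length genes in percent, with 1 point per cow, colour for genotype and squares for libraries whose description ends in _2. A1A1 9, at 51.8%, is lowest for both genes, and r over the other 13 cows is -0.78 and -0.65.

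Apart from A1A1 9, LALBA had a smaller spread between cows than PAEP. With all 14 libraries the SD of log2 CPM was 1.06 for LALBA and 0.92 for PAEP, beside a median of 0.90 for the 50 genes with most counts. Without A1A1 9 the SD was 0.32 for LALBA and 0.51 for PAEP, beside a median of 0.57. From lowest to highest, LALBA CPM then spanned 2.06-fold and PAEP CPM 3.03-fold, against 20.6-fold and 13.2-fold with A1A1 9 included. This is a description of the cows sequenced, with no test.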

How the data were processed

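Total RNA was extracted from frozen milk and paired-end mRNA libraries were built, per the labels' protocols. For 36075 Ensembl identifiers of cattle the authors deposited a table of raw counts and a table of FPKM. Tools listed in the submitters' processing notes, with no role, are STAR, edgeR 4.0.16, cutadapt 4.0 and FastQC 0.11.9. Neither a genome build nor a counting tool is given in the sources used here. Gene lengths were taken from deposited counts divided by FPKM, with a fitted factor per library and a common scale. That scale was chosen to bring the lengths of a small set of abundant genes closest to whole numbers. With it, all 21104 genes with a count gave a whole number within 0.05 bases.

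The reference table (ARS-UCD2.0) matched 0 of 36075 identifiers to symbols. The planned lists of caseins, lactose synthesis, lactogenic signalling, other secretory products and cell type markers were therefore not run, and the tissue was not checked by markers. No protein or promoter sequence was used. Genes named for likeness are the 2 of the 50 genes with most counts having the highest r, and the neighbours in mean FPKM. For each of 15 mitochondrial genes of the table (protein-coding or rRNA), the gene with most counts among the 50 was taken if its length matched exactly, which gave 12.

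The main test was edgeR 4.0.16 under R 4.3.3 on the deposited counts: filterByExpr, TMM, a robust quasi-likelihood fit of A2A2 minus A1A1, and Benjamini-Hochberg over 12320 genes with a threshold of 0.05. CPM uses TMM factors, and log2 CPM adds 0.5. Group differences were tested by exact permutation over 3432 splits, two-sided, with 95% intervals by inverting that test. Correlations used 100000 permutations, or all permutations up to 8 cows. Alternatives used DESeq2 1.42.0, limma 3.58.1 on voom values and on log2(FPKM + 1) or log2(FPKM + 0.1), sva 3.50.0, other scalings, filters and each library left out. Scripts were tested on simulated data. The members, lists and the mitochondrial-length rule were chosen with earlier results of these data known. The samples are separate cows, each sequenced once.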

Additional observations from a re-analysis of the deposited data

Results flagged for a closer look

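Values of 7 cows were searched in 12 sets (CPM and log2 CPM of both genes, their ratio of counts and their summed share, in each genotype) for a cow far from the other 6 by Dixon's test. It found 3, all in A1A1 9. Chance gives about 1 in 20 sets if the sets are independent. These sets share genes and cows, so the 3 are not separate findings. For both genes the call came on log2 CPM and not on CPM. The log2 CPM of LALBA in A1A1 9 was 10.29, and the nearest A1A1 cow had 13.61. The log2 CPM of PAEP in A1A1 9 was 12.70, and the nearest had 15.01. The summed share of counts in A1A1 9 was 0.718%, and the nearest was 4.65%. LALBA CPM in A1A1 9 was 9.99-fold below the lowest of the other 13 cows, and PAEP CPM 4.36-fold below. Scaled to the counts outside the mitochondrial-length genes, these were 6.74-fold and 3.19-fold.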

How the results depend on the processing

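The log2 fold changes of LALBA and PAEP stayed above 0 and did not pass in all 28 alternatives of each gene fit. They ran from 0.19 to 0.74 for LALBA and from 0.19 to 0.62 for PAEP, both lowest without A1A1 9, and the adjusted p was 0.565 or more. DESeq2 called 9 genes and limma on log2(FPKM + 1) called 1, where edgeR called 0 and leaving out 1 library gave 0 to 0. Library totals in place of TMM moved the median over all genes to 0.18 (log2), and that of LALBA to 0.60 and PAEP to 0.61. For the mean log2 CPM of LALBA they gave 0.92 (exact permutation p = 0.0111), and its range with 1 library left out was 0.20 (A1A1 9) to 0.90 (A1A1 3, exact permutation p = 0.0256). The summed share lost its unadjusted call as a share of counts outside the mitochondrial-length genes (2.15 points), outside the other 48 of the 50 genes with most counts (3.66), between medians (2.11) and in the 10 libraries without the suffix (3.08). Leaving out 1 library gave 1.99 to 3.22 points. The log2 ratio reversed between medians (0.021), and leaving out 1 library gave -0.21 to 0.010, with 0.0032 without A1A1 9. The correlation of LALBA with PAEP was 0.35 without A1A1 9 scaled to the counts outside the mitochondrial-length genes, and 0.71 to 0.95 when leaving out 1 library with TMM. Without A1A1 9 the LALBA difference by suffix turned from 0.34 to -0.043, and r with total count from 0.19 to -0.15 for LALBA and from 0.095 to -0.21 for PAEP. None of these passed. The cause of these changes was not tested. Alternatives for the suffix, the library measures and the FPKM ratio, and those combining A1A1 9 with a scaling, were chosen after seeing the data. No paired analysis was possible because the labels give each sample number once.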

Other observations

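In A1A1 9 the whey protein genes were not the only abundant transcripts at low levels. Of the 50 genes with most counts, 38 lie outside the mitochondrial-length group. Of these 38, 15 had their lowest CPM of all 14 libraries in A1A1 9. Of the 15, 12 lay more than 2 log2 units below the median of the other 13 cows. The rest lay only -0.60 to -0.43 log2 units from that median. LALBA lay farthest below, by -3.75 log2 units, and PAEP was eleventh, at -2.86. ENSBTAG00000002632 (-3.71) and ENSBTAG00000005005 (-3.65) were next to LALBA. Among the mitochondrial-length genes, 11 of 12 had their highest CPM in A1A1 9, which follows in part from their high share of its counts. The share of all tested genes that were lowest in A1A1 9 is not given, so the counts above describe the 50 genes only. The median of all 12320 tested genes was -0.0071 log2 units from the median of the other cows. TMM factors, computed on these same genes, bring the typical difference near 0. This median therefore cannot show whether the other genes changed.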
